A study of Mus musculus with 12 samples.

Results

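The transcripts described here are those of the 4 disaccharidases of the intestinal brush border and of the 2 main glucose transporters of the enterocyte: Sis, Mgam, Lct, Treh, Slc5a1 and Slc2a2. They were chosen by gene symbol and not by a cut on measured values, though with earlier results of these data known. They are 6 of the 15855 genes of the deposited table. All 6 were among the 14462 genes that passed the filter on low counts, and none had fewer than 191 counts in any sample.

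Dietary starch, sucrose, lactose and trehalose cannot be absorbed until they are split into single sugars. That last step is carried out by enzymes anchored in the apical membrane of the enterocyte: sucrase-isomaltase (Sis) and maltase-glucoamylase (Mgam) for sucrose and the products of starch, lactase (Lct) for milk sugar and trehalase (Treh) for trehalose. The glucose set free enters the cell together with sodium through SGLT1 (Slc5a1) at the apical membrane, and leaves it towards the blood through GLUT2 (Slc2a2), mainly at the basolateral side. In rodents lactase is high during suckling and declines around weaning, when sucrase-isomaltase appears.

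RNA was sequenced from live EpCAM+ epithelial cells sorted from the whole small intestine of C57BL6/J mice 24 h after surgery. Of the 12 mice, 7 had sham surgery and 5 had permanent middle cerebral artery occlusion (pMCAO), a filament model of ischaemic stroke in which flow is not restored. The sham procedure was the same without the occlusion, both groups were anaesthetised with ketamine and xylazine, and the mice were young adults kept free of specific pathogens. The cells came from the whole length of the small intestine, so duodenum, jejunum and ileum were not separated, and in such bulk samples more cells of a type and more RNA per cell cannot be told apart.

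The 6 genes lie on 5 chromosomes of GRCm38 and are all protein coding. Sis spans 72888557 to 72967863 on the minus strand of chromosome 3, and Slc2a2 spans 28697903 to 28731359 on the plus strand of the same chromosome. Mgam occupies 40628831 to 40769123 of chromosome 6 (plus strand), Lct 128284756 to 128328318 of chromosome 1 (minus strand), Treh 44673233 to 44686305 of chromosome 9 (plus strand) and Slc5a1 33104219 to 33162870 of chromosome 5 (plus strand). Sis and Mgam encode related enzymes, yet no stretch of at least 100 nt of the longest Sis transcript was 90% or more identical to Mgam or to any other gene, so reads of these transcripts are separable. Treh is the exception among the 6: a stretch of 175 nt matches Gm47238 at that level and its exons overlap Phldb1 on the opposite strand, so its counts are less certain.

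The promoters of the 3 genes with the smallest p-values between the groups (Mgam, Sis and Slc5a1) and of Lct, which is compared with Sis below, are printed as the 250 bases before the RefSeq transcription start (GRCm38.p6), 5′ to 3′ on the strand of the gene. Capitals mark matches on either strand to the motifs TTTATNG (CDX), AGATAA (the GATA factors) and CAAAGTCCA (HNF4), factors known from the enterocyte. The regions are chr3:72967864-72968113 for Sis, chr6:40628581-40628830 for Mgam, chr1:128328319-128328568 for Lct and chr5:33103969-33104218 for Slc5a1.
Sis: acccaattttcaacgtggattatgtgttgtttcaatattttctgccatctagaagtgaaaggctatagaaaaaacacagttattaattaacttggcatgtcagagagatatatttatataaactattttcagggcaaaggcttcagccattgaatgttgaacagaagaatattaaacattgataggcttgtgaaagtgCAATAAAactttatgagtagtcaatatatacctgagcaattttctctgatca
Mgam: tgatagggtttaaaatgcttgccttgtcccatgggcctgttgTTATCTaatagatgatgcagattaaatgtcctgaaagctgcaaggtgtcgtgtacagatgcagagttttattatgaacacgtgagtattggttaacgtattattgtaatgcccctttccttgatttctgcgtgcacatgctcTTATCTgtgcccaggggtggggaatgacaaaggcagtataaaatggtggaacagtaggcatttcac
Lct: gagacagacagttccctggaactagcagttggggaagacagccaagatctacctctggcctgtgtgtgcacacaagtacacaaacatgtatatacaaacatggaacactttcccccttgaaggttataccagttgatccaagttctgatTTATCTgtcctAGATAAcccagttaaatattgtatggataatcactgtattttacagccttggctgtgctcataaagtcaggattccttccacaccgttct
Slc5a1: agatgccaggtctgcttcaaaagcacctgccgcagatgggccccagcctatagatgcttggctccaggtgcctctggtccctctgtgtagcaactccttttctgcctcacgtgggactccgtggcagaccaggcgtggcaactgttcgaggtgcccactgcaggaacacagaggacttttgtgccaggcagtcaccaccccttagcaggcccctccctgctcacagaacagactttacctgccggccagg
Counted from the start, the Sis window held 1 CDX match at -52. Mgam had GATA matches at -208 and -66, and Lct had them at -101 and -90. Treh, not printed, had the only HNF4 match, at -71, and no match to these 3 motifs was found in the windows of Slc5a1 and Slc2a2. The motif TATAAA (lower case above) was found in Mgam at -30 and in Sis as a pair of overlapping matches at -134 and -138; none of the marked motifs overlapped another. In all 32851 promoter windows of that length, CDX matches were found in 9.81%, GATA in 9.99%, HNF4 in 0.384% and TATAAA in 12.4%. Of the 6 windows, that of Sis was the poorest in GC (31.6%).

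The libraries differed in ways that the groups do not explain. Total counts ranged from 7418730 to 31925579 and the share of mitochondrial ribosomal RNA from 14.6% to 54.5%. The first principal component, with 40.6% of the variance of log2 CPM, separated the 4 libraries numbered 58 to 61 in the titles (sham replicates 1 to 3 and pMCAO replicate 1, here the early libraries) from the 8 numbered 62 to 72 (the later libraries, 4 sham and 4 pMCAO). What this split stands for is not given in the labels, and it was known from an earlier look at these data to separate the samples. It is used as a description and as a term in alternative fits. It also sets the within-library splits of the ratio tests and the samples of the correlations, so those results rest on a boundary known from the same data.

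All 6 genes were detected in every sample, and they ranged from among the most abundant epithelial transcripts to moderately abundant ones. Divided by exon length, the mean level over the 12 samples was 275 CPM per kb ± 164 (SD) for Sis, 204 CPM per kb ± 139 for Mgam, 155 CPM per kb ± 81.0 for Slc5a1, 100.4 CPM per kb ± 30.2 for Lct, 67.3 CPM per kb ± 16.4 for Treh and 31.2 CPM per kb ± 21.2 for Slc2a2. The unit CPM gives the reads of a gene relative to the size of its library, with TMM scaling factors applied. Among 14402 genes with an exon length, Sis ranked 70th by this level, Mgam 94th, Slc5a1 118th, Lct 195th, Treh 303rd and Slc2a2 723rd.

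The order of neighbours held in most samples. Sis was above Mgam in 11 of 12 samples, Mgam above Slc5a1 in 10, Slc5a1 above Lct in 11, Lct above Treh in 11 and Treh above Slc2a2 in all 12. For Mgam against Slc5a1 the mean difference within a sample was 0.31 on the log2 scale, smaller than its SD over samples (0.34). For the other 4 pairs of neighbours the mean difference was larger than its SD, and none of the pairs was tested. The distance between neighbours depends on the length used. Divided by the longest transcript instead of all exons, Mgam averaged 273.7 CPM per kb and Slc5a1 155.4 CPM per kb. Together the 6 transcripts took 0.158% to 0.823% of the counts of a sham sample and 0.436% to 1.30% of those of a pMCAO sample. These are shares of all counts, mitochondrially encoded RNA included, so they also depend on how much of a library is mitochondrial. The 3 lowest shares were those of the early sham samples, which also had the highest mitochondrially encoded percentages of the 12 samples. The part of library composition in the group difference in these shares was not tested.

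The comparison of the groups asked how the gut epithelium differs 24 h after stroke. Differences are given as the log2 of the fold change of pMCAO over sham (log2FC) with the p of the limma-voom fit adjusted over all genes tested. Transcripts of all 6 genes were higher on average in pMCAO mice, by 1.24-fold (Treh) to 2.38-fold (Mgam). The fitted difference was larger for the sucrose and starch hydrolases Sis and Mgam and for the transporters than for lactase and trehalase. Tested across all genes with limma-voom, none of the 6 was called at an adjusted p of 0.05 and a log2FC of 1 in size, nor was any of the 14462 genes tested (0%). Without adjustment, 3 of the 6 (Sis, Mgam and Slc5a1) had a p under 0.05 with a higher level in pMCAO mice, against 4.7% of all genes tested in that direction. A log2FC above 0 was found in 6 of 6, against 55.5% of all genes, and the median log2FC was 0.90 for the 6 genes and 0.06 for all genes tested. The 6 genes were correlated across the mice of the later libraries, as given below, so they do not count as 6 separate observations. The group difference across all genes was thus not past the adjusted threshold anywhere in this fit, in which 1217 genes (8.42%) had an unadjusted p under 0.05. By edgeR's quasi-likelihood test 0 genes were called too, with 932 at an unadjusted p under 0.05, and by DESeq2 70 were called.

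**Figure D1:**
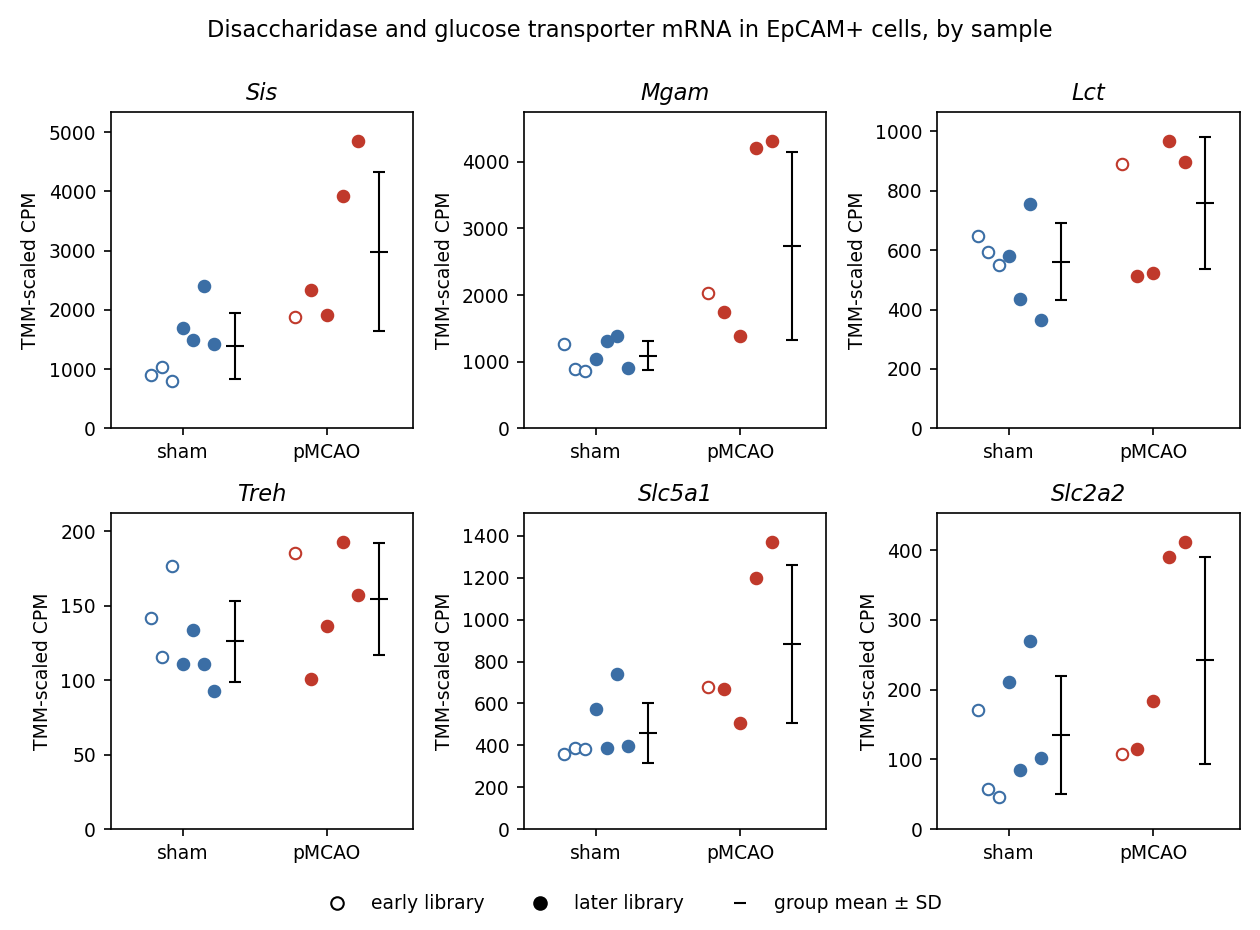
TMM-scaled CPM of the 6 genes in each of 7 sham and 5 pMCAO samples, with open circles for early and filled circles for later libraries and bars for the group mean ± SD. For Sis, Mgam, Slc5a1 and Slc2a2 the highest points in each panel are pMCAO replicates 4 and 5, whereas the groups overlap in every panel.

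Sucrase-isomaltase, which splits sucrose and the branch points of starch, was the most abundant of the 6 in CPM. In sham mice Sis ranged from 791 to 2397 CPM with a median of 1416, and in pMCAO replicates 1 to 5 it measured 1883, 2338, 1915, 3929.7 and 4855 CPM. All 5 pMCAO samples lay above the sham median, 2 of them above the highest sham sample, and 6 of 7 sham samples lay below the lowest pMCAO sample. It averaged 1389 CPM ± 554 (SD, n = 7) after sham and 2984 CPM ± 1339 (SD, n = 5) after pMCAO surgery. The log2FC was 1.14 (SE 0.32, 95% confidence interval 0.47 to 1.82, adjusted p = 0.321).

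Maltase-glucoamylase, which releases glucose from the ends of starch fragments, showed the largest difference of the 6. Mgam ranged from 859 to 1381 CPM in sham mice with a median of 1045, and measured 2029, 1739, 1380.5, 4210.4 and 4316 CPM in pMCAO replicates 1 to 5. The sham samples were close together, and 4 of 5 pMCAO samples were above all of them, while pMCAO replicate 3 was level with the highest sham sample. The averages were 1091 CPM ± 222 (SD, n = 7) and 2735 CPM ± 1414 (SD, n = 5), with a log2FC of 1.25 (SE 0.28, 95% confidence interval 0.65 to 1.85, adjusted p = 0.191). By unadjusted p, Mgam was the 32nd of all genes tested, Sis the 109th and Slc5a1 the 127th.

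Lactase, the enzyme of milk sugar, overlapped more between the groups. Lct ranged from 365.5 to 755.5 CPM in sham mice with a median of 579 and measured 891, 512, 523, 969 and 899 CPM in pMCAO replicates 1 to 5. The pMCAO group was divided, with 3 samples above the highest sham sample and 2 below the sham median. The averages were 561 CPM ± 129 (SD, n = 7) and 758.5 CPM ± 222 (SD, n = 5), with a log2FC of 0.45 (SE 0.23, 95% confidence interval -0.04 to 0.94, adjusted p = 0.607).

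Trehalase, which splits the sugar of fungi and insects, was the lowest of the enzymes and differed least. Treh ranged from 92.9 to 176 CPM in sham mice with a median of 116 and measured 185, 101, 137, 193 and 157 CPM in pMCAO replicates 1 to 5. The groups overlapped over most of their range, with 2 pMCAO samples above the highest sham sample. The averages were 126 CPM ± 27.4 (SD, n = 7) and 154.5 CPM ± 37.4 (SD, n = 5), with a log2FC of 0.31 (SE 0.20, 95% confidence interval -0.12 to 0.74, adjusted p = 0.68).

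Of the transporters, Slc5a1, which carries glucose and galactose into the cell, had the largest difference after Mgam and Sis. It ranged from 357 to 740.4 CPM in sham mice with a median of 388, and measured 679.8, 669, 506, 1199 and 1372 CPM in pMCAO replicates 1 to 5. Of the sham samples, 5 lay below every pMCAO sample, 2 sham samples (replicates 4 and 6) lay within the pMCAO range, and 2 pMCAO samples were above all sham samples. The averages were 461 CPM ± 143 (SD, n = 7) and 885 CPM ± 377 (SD, n = 5), with a log2FC of 0.93 (SE 0.27, 95% confidence interval 0.36 to 1.49, adjusted p = 0.339).

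Slc2a2, the basolateral exit for glucose and fructose, varied most from mouse to mouse. It ranged from 45.7 to 269.7 CPM in sham mice with a median of 102, and measured 108, 115, 184, 390.2 and 412 CPM in pMCAO replicates 1 to 5. The spread within each group was larger relative to its mean than for the other 5 genes, and 3 pMCAO samples lay within the sham range. The averages were 134.5 CPM ± 84.4 (SD, n = 7) and 242 CPM ± 148 (SD, n = 5), with a log2FC of 0.87 (SE 0.46, 95% confidence interval -0.11 to 1.84, adjusted p = 0.621). No gene of the 6 had groups that did not overlap with pMCAO higher, a pattern found in 0.332% of all genes tested.

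Early and later libraries differed in these genes among sham mice alone. The geometric mean of the 4 later sham samples over that of the 3 early ones was 1.90 for Sis, 1.95 for Slc2a2, 1.35 for Slc5a1 and 1.15 for Mgam, whereas it was 0.863 for Lct and 0.780 for Treh. In Sis the 3 early sham samples (791 to 1043 CPM) lay below the 4 later ones (1416 to 2397 CPM), and in Treh the order was mostly the opposite. Within the early libraries, pMCAO replicate 1 was above all 3 sham samples for Sis, Mgam, Lct, Treh and Slc5a1 and between them for Slc2a2, a place above all 3 that 29.6% of all genes tested shared. Its log2 difference from the early sham mean was 1.06 for Sis, 1.04 for Mgam, 0.58 for Lct, 0.38 for Treh, 0.85 for Slc5a1 and 0.50 for Slc2a2. In the later libraries, 4 against 4, the differences were of like size: 0.83 for Sis, 1.17 for Mgam, 0.43 for Lct, 0.36 for Treh, 0.77 for Slc5a1 and 0.70 for Slc2a2.

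**Figure D2:**
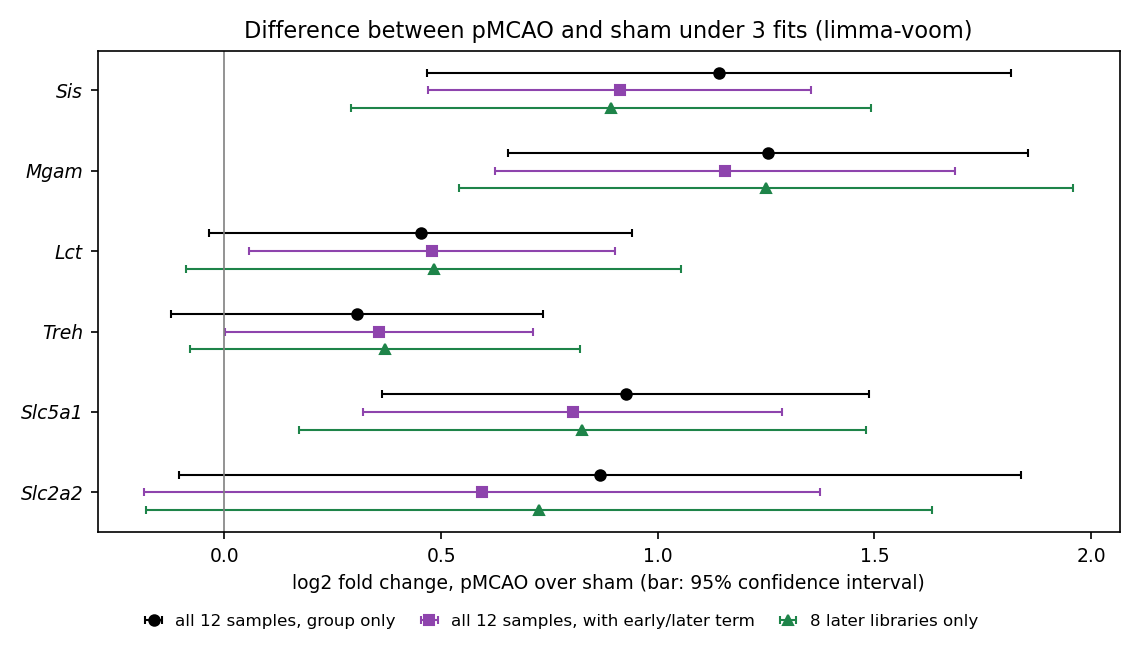
The log2FC with its 95% confidence interval for the 6 genes in 3 limma-voom fits: all 12 samples on the group alone, all 12 with a term for early against later libraries, and the 8 later libraries. The estimates are above 0 in each fit, and the intervals of Sis, Mgam and Slc5a1 do not reach 0 in any of the 3, whereas that of Slc2a2 does in each.

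With a term for early against later libraries in the limma-voom fit, the log2FC was 0.91 for Sis (adjusted p = 0.0971), 1.16 for Mgam (adjusted p = 0.0837), 0.80 for Slc5a1 (adjusted p = 0.203), 0.48 for Lct (adjusted p = 0.431), 0.36 for Treh (adjusted p = 0.50) and 0.59 for Slc2a2 (adjusted p = 0.615). That fit called 16 genes of 14462 (0.111%), and none of the 6. Under it 5 of the 6 had an unadjusted p under 0.05 and were higher, against 5.46% of all genes, though the 6 are not separate observations. DESeq2, run as an alternative, gave Mgam an adjusted p of 0.00304 at a log2FC of 1.31 on the group alone, which passed both thresholds, and an adjusted p of 0.0682 for Sis and 0.10 for Slc5a1. With the early and later term DESeq2 gave adjusted p-values of 0.000934 for Mgam, 0.00775 for Sis and 0.0449 for Slc5a1, of which Mgam (log2FC 1.23) also passed the fold threshold; this fit was added after the data had been examined. The call of Mgam therefore depends on the test, and its direction did not.

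Whether the 6 transcripts differed in equal measure was read from ratios within a sample, which need no scaling of the library. None of the 4 ratios passed 0.05 over all 12 samples. The ratio of Lct to Sis counts was 0.725, 0.571 and 0.695 in the 3 early sham samples and 0.473 in the early pMCAO sample. It was 0.343, 0.292, 0.315 and 0.258 in the later sham samples and 0.219, 0.273, 0.247 and 0.185 in the later pMCAO samples. In each set of libraries the pMCAO samples thus had less lactase per sucrase-isomaltase transcript, with 1 overlap in the later ones, while the step between early and later libraries was larger than that between the groups. Over all 12 samples the log2 ratio was lower in pMCAO mice by a difference of -0.67 (two-sided exact permutation test over 792 splits, p = 0.0846, adjusted over 4 ratios 0.189). With splits kept within the early and within the later libraries the difference was -0.42 (exact permutation test over 280 splits, p = 0.00714, adjusted 0.0286), and in the later libraries alone -0.39 (exact permutation test, p = 0.0571, adjusted 0.229). The result was past 0.05 only under the within-library splits, whose boundary was known from an earlier look at these data.

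**Figure D3:**
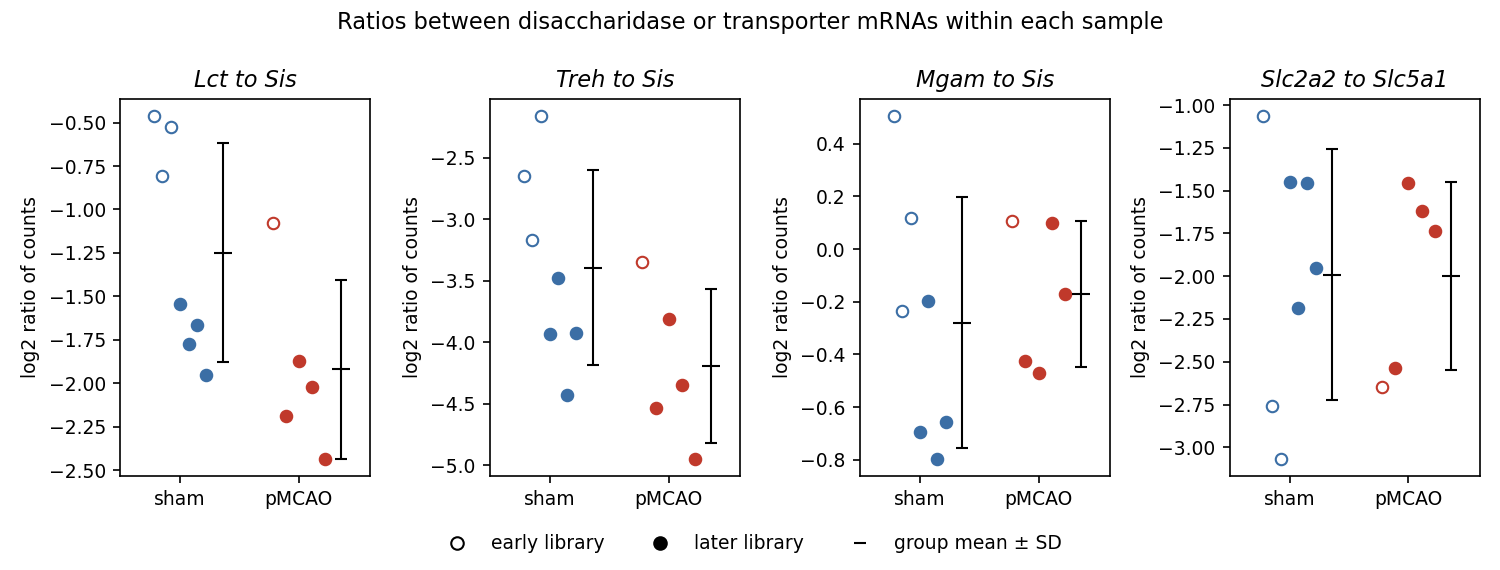
Log2 ratio of counts of 4 gene pairs within each sample, for 7 sham and 5 pMCAO samples, with open circles for early and filled circles for later libraries and bars for the mean ± SD. The ratio of Lct to Sis falls in a lower range in later than in early libraries, and within each it is lower in most pMCAO samples, whereas Slc2a2 to Slc5a1 has the same mean in both groups.

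Treh to Sis followed the same order, with a geometric mean ratio of 0.0950 in sham and 0.0545 in pMCAO mice. The difference of -0.80 on the log2 scale was not past the threshold (exact permutation test, p = 0.0947, adjusted 0.189; within libraries -0.52, p = 0.0821, adjusted 0.164). Mgam to Sis, the ratio of the related starch enzymes, was 0.824 in sham and 0.887 in pMCAO mice, a log2 difference of 0.11 (exact permutation test, p = 0.659, adjusted 0.879). With splits within the libraries it was 0.24 (exact permutation test, p = 0.214, adjusted 0.286), and in the later libraries alone 0.34 (exact permutation test, p = 0.143, adjusted 0.286). Leaving out 1 sample at a time moved it between 0.02 (without sham replicate 6) and 0.24 (without sham replicate 1). The ratio of the basolateral Slc2a2 to the apical Slc5a1 was 0.252 and 0.25, a log2 difference of -0.01 (exact permutation test, p = 0.98, adjusted 0.98), with a sham range of 0.119 to 0.478 that held all 5 pMCAO values (0.159 to 0.364).

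Levels of the 6 transcripts were next compared across mice. In the 8 later libraries all 15 pairwise correlations of log2 CPM were above 0, with Pearson's r from 0.650 to 0.982, and 10 pairs had an adjusted permutation p of at most 0.05 by r and 8 by Spearman's rho. Of the 5 pairs that did not pass by r, 4 held Treh and the other was Mgam and Slc2a2. These 8 samples hold both groups, so the group difference enters each r. Sis and Slc5a1 were the closest pair (r = 0.982, permutation p = 0.000149, adjusted 0.00224; rho = 0.952, permutation p = 0.00114, adjusted 0.00570), and r was 0.93 without the 2 samples farthest from the median of Sis and 0.979 after the group means were subtracted. Sis and Mgam came next (r = 0.958, permutation p = 0.00122, adjusted 0.00458; rho = 0.952, permutation p = 0.00114, adjusted 0.00570), with r at 0.78 without the 2 farthest samples. Lct and Slc2a2 had r = 0.949 (permutation p = 0.00104, adjusted 0.00458; rho = 0.952, permutation p = 0.00114, adjusted 0.00570) and 0.878 without the 2 farthest samples. The pair of Lct and Sis had r = 0.905 (permutation p = 0.00216, adjusted 0.00648; rho = 0.881, permutation p = 0.00724, adjusted 0.0155) and 0.78 without them, so that samples high in 1 enzyme were high in the other even where their ratio differed. For Sis and Treh (r = 0.699, permutation p = 0.0553, adjusted 0.0638; rho = 0.667, permutation p = 0.0831, adjusted 0.0959) r was -0.04 without the 2 farthest samples, and for Mgam and Slc2a2 (r = 0.739, permutation p = 0.0374, adjusted 0.0510; rho = 0.714, permutation p = 0.0576, adjusted 0.0785) it was 0.07, so both of these rested on 2 samples. Among the 10 pairs that passed by r, the value without the 2 farthest samples was lowest for Mgam and Treh (0.312) and Mgam and Lct (0.427), neither of which passed by rho, so these relations also rested on those samples.

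**Figure D4:**
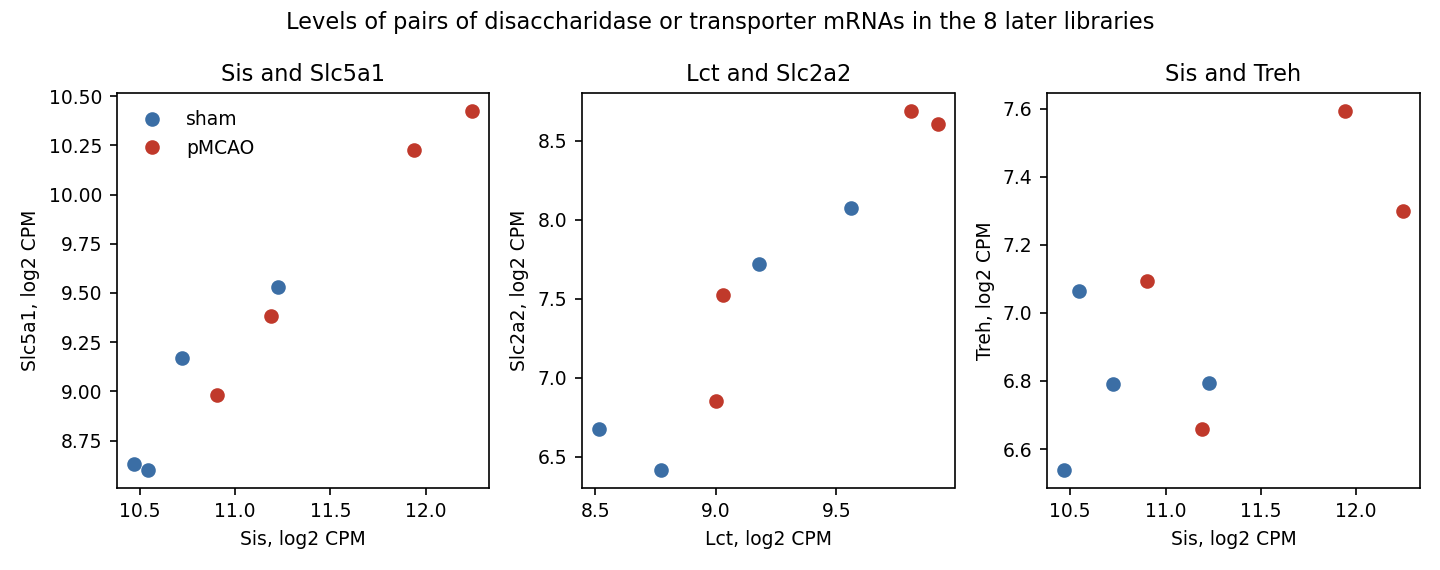
Log2 CPM of 3 pairs of genes in the 8 later libraries, 4 sham (blue) and 4 pMCAO (red). Sis and Slc5a1 (r = 0.982) and Lct and Slc2a2 (r = 0.949) lie close to a line that runs through both groups, while Sis and Treh (r = 0.699) are scattered apart from a pair of high pMCAO samples.

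The genes most like each of the 6 were taken by Pearson's r of log2 CPM over the 12 samples after the mean of the early or the later libraries was subtracted, as a description. For Sis they were Mdh1, the cytosolic malate dehydrogenase (0.972), Sfxn1, a mitochondrial serine transporter (0.971), and Slc5a1 (0.970). Mgam was closest to Gna11, a G protein subunit (0.965), Slc16a10, a transporter of aromatic amino acids (0.950), and Aldh4a1, an enzyme of proline breakdown (0.939). Lct was closest to Mme, the brush-border peptidase neprilysin (0.948), Slc5a1 (0.938) and Mep1b, a subunit of the brush-border peptidase meprin (0.933).

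For Treh the closest were RP24-324L19.3 (0.943), Slc37a4, which carries glucose-6-phosphate into the endoplasmic reticulum (0.931), and Slc26a6, an apical anion exchanger (0.921). For Slc2a2 they were Slc26a3, an apical chloride and bicarbonate exchanger (0.950), Arsa, a lysosomal sulfatase (0.939), and Opa1, a protein of mitochondrial fusion (0.911). Slc5a1 was closest to Sis (0.970), Mdh1 (0.950) and Sfxn1 (0.948). Of all 14461 other genes, Slc5a1 thus ranked 3rd for Sis and 2nd for Lct, and Mgam ranked 6th for Sis, while Treh ranked 710th for Sis.

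Around the 6 genes, a list of 63 genes of carbohydrate digestion and glucose handling held 48 in the table and 47 that were tested. Of the 47, 33 were higher and 14 lower in pMCAO mice, none was called, and the median log2FC was 0.29 against 0.06 over all genes. With an unadjusted p under 0.05, 5 were higher (4.7% of all genes tested) and 1 was lower (3.71% of all genes tested).

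Among these, G6pc, the glucose-6-phosphatase that lets a cell release glucose, measured 2.63 to 26.1 CPM in sham and 26.4 to 99.9 CPM in pMCAO mice. Its groups thus nearly touched but did not overlap, as was found with pMCAO higher in 0.332% of all genes tested. The log2FC of G6pc was 2.08 (SE 0.42, adjusted p = 0.109), and with the early and later term 2.04 (adjusted p = 0.0391), which passed both thresholds. Slc37a4, its partner in the endoplasmic reticulum, averaged 10.4 CPM ± 3.94 (SD, n = 7) after sham and 27.2 CPM ± 14 (SD, n = 5) after pMCAO surgery (log2FC 1.13, adjusted p = 0.344). Of the 7 genes of glucose phosphorylation and release in the table, 5 were higher and 2, Hk1 and Hkdc1, lower.

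Of 12 other listed transporters of the Slc2a and Slc5a families tested, 10 were higher and 2 lower, where 55.5% of all genes tested were higher. With the early and later term in limma-voom, Slc2a1 (log2FC -0.15) and Slc5a4b (-0.15) were lower as well. Slc2a5, the apical fructose transporter, averaged 11.2 CPM ± 5.69 (SD, n = 7) after sham and 36.4 CPM ± 19 (SD, n = 5) after pMCAO surgery (log2FC 1.44, adjusted p = 0.444). Slc5a11, a sodium-coupled inositol transporter, had a log2FC of 0.78 (adjusted p = 0.583). Slc2a1, the general glucose transporter GLUT1, differed little in the mean (log2FC 0.19, adjusted p = 0.956) and ranged widely in sham mice, from 0.822 to 45.1 CPM.

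The sodium pump keeps up the gradient that drives SGLT1. Its subunit Atp1b1 averaged 318 CPM ± 119 (SD, n = 7) after sham and 472 CPM ± 185 (SD, n = 5) after pMCAO surgery (log2FC 0.59, adjusted p = 0.592). Of the 4 listed genes of the pump and the basolateral potassium channel that were tested, 3 were higher and 1, Atp1b3, lower. Of the 5 tested regulators and apical partners of SGLT1, 2 were higher and 3 lower, none with an unadjusted p under 0.05. The 4 tested genes of sweet taste signalling divided evenly, and of the other starch and glucoside hydrolases Gaa and Ganc were higher and Mgam2-ps lower, all 3 with adjusted p above 0.87.

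**Figure D5:**
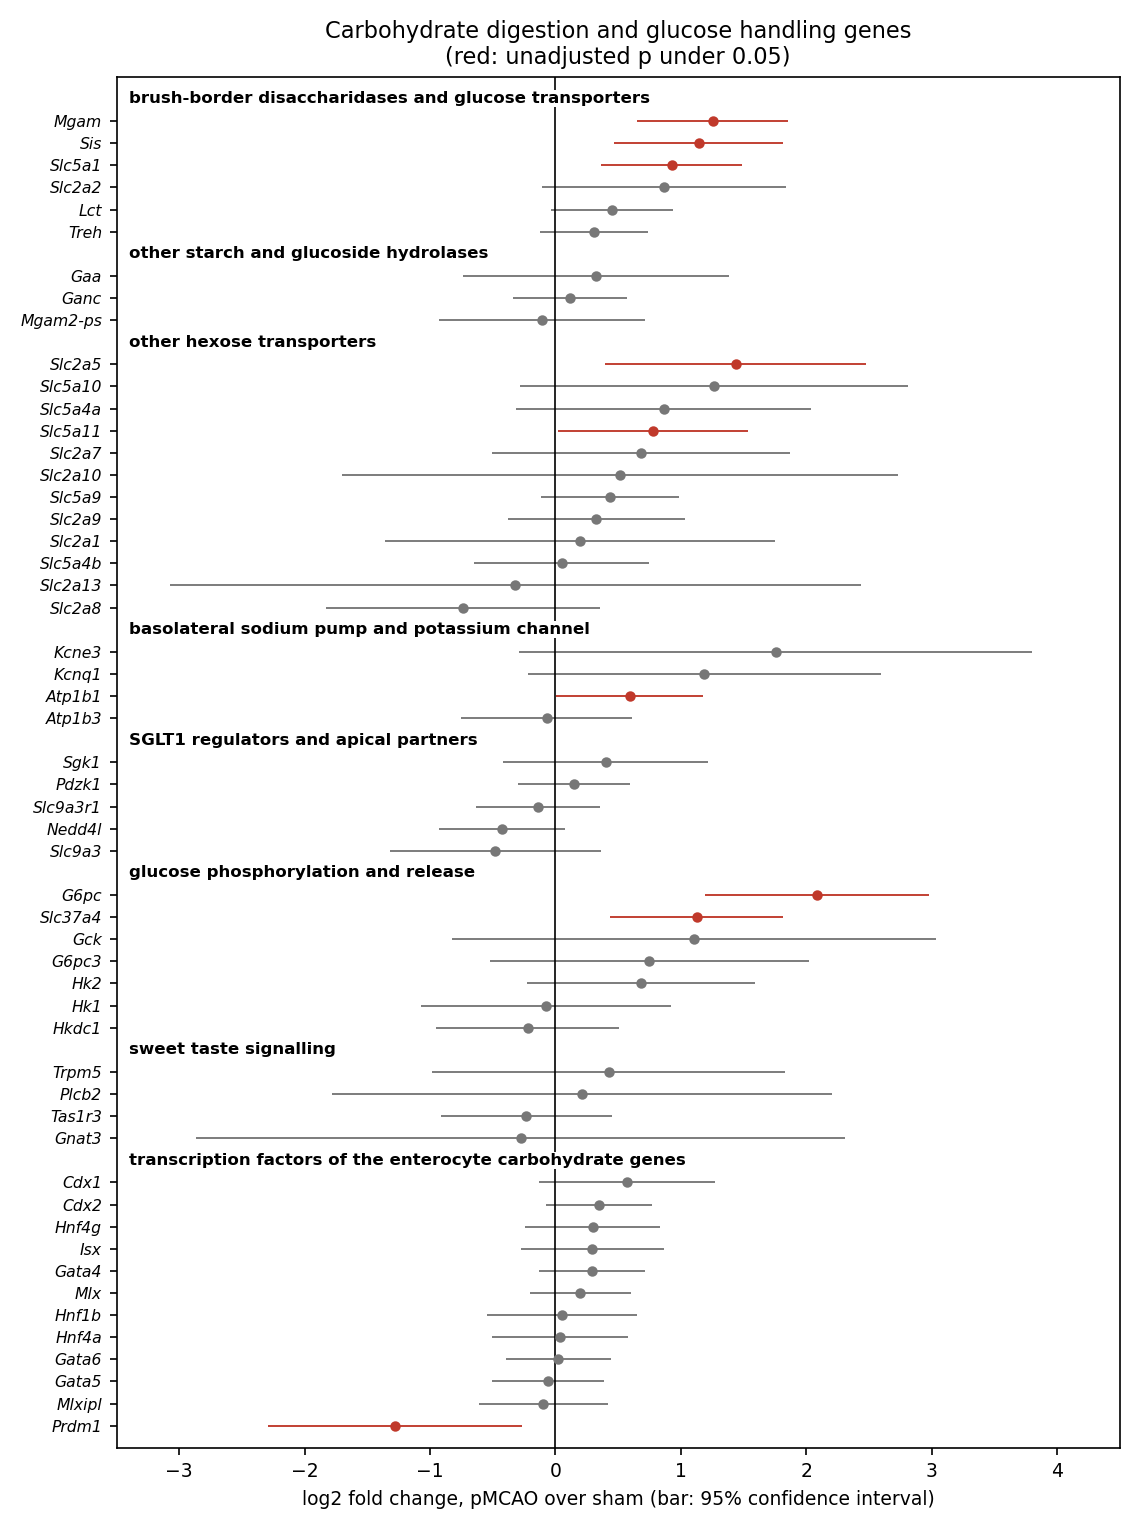
The log2FC of pMCAO over sham with its 95% confidence interval (limma-voom, 12 samples) for the 6 genes and for the 47 tested genes of carbohydrate digestion and glucose handling, grouped by role. Red marks an unadjusted p under 0.05, which Mgam, Sis and Slc5a1, 5 other genes above 0 and Prdm1 below 0 reached.

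The transcription factors known to act on these promoters differed little in their own transcripts. Of 12 tested, 9 were higher and 3 lower, with a log2FC of 0.35 for Cdx2 (adjusted p = 0.645), 0.04 for Hnf4a (adjusted p = 0.975) and 0.29 for Gata4 (adjusted p = 0.689). The exception was Prdm1, which encodes BLIMP1, a repressor that keeps adult genes such as sucrase-isomaltase off in the suckling gut. It averaged 95.9 CPM ± 50.4 (SD, n = 7) after sham and 42.9 CPM ± 36 (SD, n = 5) after pMCAO surgery (log2FC -1.28, adjusted p = 0.508), with an unadjusted p under 0.05 and ranges that overlapped between the groups. Among sham mice alone Prdm1 was lower in later than in early libraries, by -1.40 on the log2 scale. The group difference was -0.48 within the early and -1.10 within the later libraries. With the early and later term in limma-voom the log2FC was -0.88 (adjusted p = 0.288). A link between Prdm1 and the level of Sis was not tested.

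The sorted cells carried the markers of enterocytes. Epcam averaged 1669 CPM ± 542 (SD, n = 7) after sham and 1268 CPM ± 710.1 (SD, n = 5) after pMCAO surgery, and the 10 enterocyte markers were all in the table, 6 of them higher and 4 lower. Vil1 (log2FC 0.09) and Alpi (0.23) differed little in the mean. Over the 12 samples Anpep (0.82, adjusted p = 0.57), Fabp1 (1.01, adjusted p = 0.587) and Fabp2 (0.93, adjusted p = 0.528) were higher with an unadjusted p under 0.05. Within the later libraries alone the log2 difference was 0.53 for Anpep, but only 0.28 for Fabp1 and 0.09 for Fabp2. Each was larger in the early libraries, which hold 1 pMCAO sample, and furthest for Fabp2 (2.69). Set against Vil1, a structural protein of the brush border, Sis was higher in pMCAO mice by 1.02 on the log2 scale (0.73 in early and 0.65 in later libraries) and Mgam by 1.13 (0.71 and 0.99). Against Alpi, Sis was higher by 0.87 (0.20 in early and 0.52 in later libraries) and Mgam by 0.98 (0.18 and 0.87). Set against Fabp2, a fatty-acid binding protein of the enterocyte, Sis was higher by 0.27 (-1.63 in early and 0.74 in later libraries). Mgam to Fabp2 was higher by 0.38 (-1.65 and 1.08), so that both ratios turned with the libraries.

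Markers of place along the villus and the gut, and of other cells, were read in the same fit. All 4 villus tip markers were lower in pMCAO mice over the 12 samples, furthest in Nt5e (log2FC -1.27, adjusted p = 0.602), but within the early libraries all 4 were higher in the pMCAO sample. The sum of their CPM was 18500 to 20620 in the early sham samples against 32260 in the early pMCAO sample, and had a median of 9698 in the later sham and 7395 in the later pMCAO samples, whose ranges overlapped. All 3 villus bottom markers were higher, among them Reg3b (log2FC 1.41, adjusted p = 0.53) and Reg3g (1.47, adjusted p = 0.528). Their summed level was 203 to 576 CPM in early sham samples against 1186 CPM in the early pMCAO sample, and 471 to 2824 CPM against 985 to 2687 CPM in the later ones. Of the 4 distal markers Slc51a (log2FC 0.51, adjusted p = 0.587) and Slc51b (0.68, adjusted p = 0.51) were higher, Slc10a2 was nearly level (0.05) and Fabp6 was lower (-0.47). In the later libraries Slc51a (0.18) and Slc51b (0.25) were higher by less, and Slc10a2 (-0.41) and Fabp6 (-1.29) were both lower. In the early pMCAO sample all 4 were higher than the early sham mean (Slc51a 1.33, Slc51b 1.99, Slc10a2 3.64, Fabp6 1.41). Of the 3 proximal markers in the table Slc40a1 (log2FC 0.50) and Gata4 (0.29) were higher, and Cybrd1 was lower (-3.15, adjusted p = 0.36) at levels under 3.27 CPM. None of these markers was called, and their part in the differences of the 6 genes was not tested.

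All 7 goblet cell markers were higher over the 12 samples, none with an unadjusted p under 0.05, while in the later libraries Agr2 was lower (-0.45) and Muc2 (0.01) and Tff3 (0.06) were nearly level. Their sum differed mainly between early and later libraries, at 4094 to 8055 CPM in early sham samples, 7308 CPM in the early pMCAO sample, 20650 to 49600 CPM in later sham samples and 24140 to 55060 CPM in later pMCAO samples. Of 10 immune markers, 9 were tested, and their sum ranged from 37.4 to 607 CPM in sham and from 61.9 to 405 CPM in pMCAO mice. None of the 8 stromal and muscle markers was in the table, and of 7 pancreatic acinar markers only Cela1 was, at up to 5.6 CPM. The amylases Amy1, Amy2a2, Amy2a5 and Amy2b were likewise not among the genes of the table.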

How the data were processed

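RNA of EpCAM+ small intestinal cells from 12 mice (7 sham, 5 pMCAO) was depleted of ribosomal RNA by a cleavage approach and sequenced in pairs. The paper gives a larger pMCAO group for its own comparison than the 5 samples of the series, so the samples compared are not the same. The authors aligned the reads to GRCm38 with STAR and assigned them to genes with featureCounts; whether strand was used is not given in the sources used here. The counts the authors deposited are whole numbers per gene, not normalised, and were the base of every result. The deposited CPM columns held the same counts relative to the total of each sample and were not used. The authors' log2 columns (fold change and average expression) and p-value columns (p-value and FDR of limma-voom in Degust, corrected for the day of collection) hold their own comparison and were not used or printed.

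Genes were kept with filterByExpr (minimum count 10), which left 14462 of 15855. TMM scaling and limma-voom followed, on the group alone (limma 3.58.1, edgeR 4.0.16, R 4.3.3), with Benjamini-Hochberg adjustment over all genes tested; a call required an adjusted p no higher than 0.05 and a log2 fold change no smaller than 1 in size. The day of collection is not in the labels, so the authors' correction could not be repeated. Log2 CPM used a prior count of 2, and ratios of counts 0.5 added to each count. Ratios were compared with two-sided exact permutation tests, written in Python 3.11.15 and checked against scipy 1.17.1. The smallest possible p over 792 splits was 0.00126. Correlations were tested with permuted pairings. Exon lengths and positions came from GENCODE vM21, in which 15776 genes of the table were found by gene identifier. Promoters came from RefSeq (GRCm38.p6, 6 of 6 genes matched) and near-identical stretches from blastn 2.17.0. DESeq2 (1.42.0) was an alternative.

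The genes, lists and tests were chosen with earlier results of these data known. A few listed genes are not reported here. Named genes were the 6 genes, list genes with an unadjusted p under 0.05, genes of the steps next to the 6, cell type markers, and the 3 genes most like each of the 6. The labels name each sample a biological replicate, and no pair within a group agreed within sampling noise (lowest chi-square per degree of freedom 20.1). Scripts were tested on simulated data with known changes.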

Additional observations from a re-analysis of the deposited data

How the results depend on the processing

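All 6 genes were higher in pMCAO mice under each of the 26 alternative fits. Mgam passed both thresholds in 5 of them: DESeq2 (log2 fold change 1.31), sample quality weights (1.46), the library number as a covariate (1.25), DESeq2 with the early and later term (1.23) and the replicate block (1.20). Sis did so in 2, the library number (1.19) and the replicate block (1.27), and the other 4 genes in none. Leaving out each sample in turn gave log2 fold changes of 0.95 to 1.29 for Sis, 1.04 to 1.44 for Mgam, 0.35 to 0.57 for Lct, 0.21 to 0.44 for Treh, 0.75 to 1.08 for Slc5a1 and 0.62 to 1.09 for Slc2a2, with the lowest values of all 6 without pMCAO replicate 4 or 5. The count of genes called was 0 in the main fit and 70 with DESeq2 (27 higher, 43 lower), 3 with total counts (3 higher), 19 with quality weights (10 and 9), 16 with the early and later term (8 and 8), 156 with the library number (61 and 95), 20 with edgeR and that term (11 and 9), 74 with DESeq2 and that term (36 and 38), and 0 to 17 with a sample left out (0 to 7 higher, 0 to 10 lower), of which 17 without pMCAO replicate 3, 8 without pMCAO replicate 1 and 5 without sham replicate 7. Total counts moved the median of all genes to 0.35. The pathway list had 3 genes called higher with DESeq2, 1 with the early and later term, 1 higher and 1 lower with the library number, 3 with DESeq2 and that term, and 5 higher and 1 lower with the replicate block. The replicate block over samples numbered 1 to 5 called 253 genes (84 and 169) against 4 (0 and 4) in the same 10 samples without it. Deviations from the group means of same-numbered samples had correlations of -0.239 to 0.398. Numbers 2 and 3 each join an early sham with a later pMCAO library, so these correlations cannot decide whether the numbers mark pairs. The labels do not name any pairs. The ratio of Lct to Sis passed 0.05 with splits within the libraries (-0.42), and the ratio of Slc2a2 to Slc5a1, close to 0, ranged from -0.19 to 0.15 with a sample left out. The fits with the early and later term in edgeR and DESeq2 and the unblocked fit of 10 samples were added after the data had been examined. The cause of these differences between fits was not tested.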
